A study of Mus musculus with 6 samples.

Results

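The mitochondrial ribosomal protein genes were taken as the protein-coding mouse genes whose GENCODE symbol begins with Mrpl or Mrps followed by a digit, 78 in all. Of these, 77 had a row in the count table of 39017 rows, and the same 77 passed the filter on low counts, 48 of them Mrpl and 29 Mrps. The remaining gene, Mrpl33, was not analysed here.

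The libraries were made from the hippocampus of female C57BL/6 mice of genotype Tmem119-Cre:RiboTag. In RiboTag mice a cell type that carries Cre makes an HA-tagged cytosolic ribosomal protein, and Tmem119-Cre is active in microglia. In the 3 IP libraries, RNA was pulled down with anti-HA magnetic beads and is meant to be the ribosome-bound RNA of microglia. The 3 input libraries were made without antibody and hold RNA of the whole tissue, microglia included. All 6 libraries share the genotype, and no further allele, disease model, treatment or age is given for them in the labels. Each IP library has an input library with the same specimen code, which gives 3 pairs. The p-values below measure the spread between coded specimens within each group, and use the pairs only where a replicate block is named. No bead-only control was analysed here.

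Mitochondria hold their own ribosome, which translates the few proteins encoded by mitochondrial DNA, all of them subunits of the respiratory chain and ATP synthase. Its proteins are encoded in the nucleus, translated on cytosolic ribosomes and imported. The large subunit (Mrpl genes) forms peptide bonds and the small subunit (Mrps genes) reads the mRNA. Some of the proteins descend from bacterial ribosomal proteins, and others were added in the course of mitochondrial evolution. Because the tag sits on cytosolic ribosomes, an IP level is the amount of an Mrpl or Mrps mRNA carried by tagged cytosolic ribosomes, not the amount of mitoribosome.

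Library totals were 18558497, 12958727 and 10757351 counts in IP 1, 2 and 3, against 20422140, 18448897 and 19190085 in input 1, 2 and 3. The median member had 443, 267 and 180 counts in IP 1, 2 and 3, against 769, 831 and 705 in the inputs. Fewer than 50 counts were found for 3, 4 and 9 members in IP 1, 2 and 3, and for 0 members in each input library. Of the microglia markers, 10 of 10 rose in IP, with summed levels of 29860 to 35520 CPM (counts scaled to library size) in IP, against 451.8 to 546.3 CPM in input. The neuron markers fell in 10 of 10 cases (1274 to 1410 CPM in IP, against 7871 to 9603 CPM in input), the oligodendrocyte markers in 8 of 8 (860.8 to 1430 CPM in IP, against 4599 to 7570 CPM in input) and the astrocyte markers in 7 of 8 (904.7 to 991.3 CPM in IP, against 2993 to 3929 CPM in input). Of the endothelial markers, 5 of 6 rose (152.7 to 257.8 CPM in IP, against 9.42 to 40.7 CPM in input). No defining marker list of another cell type summed to 0 in IP, and the part of these cells in the results below was not tested. Pair 3 stood apart in the summed choroid plexus markers, which were 625.1, 497.9 and 11.2 CPM in IP 1, 2 and 3, against 3807, 2679 and 28.2 CPM in the inputs. Folr1, Kcnj13 and Otx2, 3 of these 6 markers, were at 0 in both libraries of pair 3.

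The mRNAs of mitochondrial ribosomal proteins were lower in IP than in whole tissue as a group. The 77 genes together took 0.203%, 0.181% and 0.149% of the counts of IP 1, 2 and 3, against 0.327%, 0.373% and 0.312% of those of input 1, 2 and 3, so the 2 sets of shares did not overlap. Of the 77 members, 44 fell in IP at an adjusted p below 0.05 (edgeR's quasi-likelihood test, Benjamini-Hochberg adjustment over 16196 genes), which is 57.1%, where 23.9% of all tested genes were called lower. No member rose: 0 were called higher by edgeR, DESeq2 or limma-voom, and 0 reached an unadjusted p below 0.05 in that direction, beside 23.8% of all genes called higher. DESeq2 called 45 members lower, beside 26.5% of all genes, and limma-voom 48, beside 28.1%. The fitted log2 fold of IP over input was below 0 for 76 of 77 members. Their median was -0.80 (interquartile range -1.29 to -0.44), beside -0.10 for all tested genes. In bulk RNA of this kind, a low share of cells of a type and less RNA per cell cannot be told apart.

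The direction was the same in the 3 pairs, and its size was not. The median member log2 ratio of IP over input was -0.69 in pair 1, -0.87 in pair 2 and -1.07 in pair 3, with a mean of -0.88 ± 0.19 (SD, n = 3). All tested genes had medians of -0.07, -0.08 and -0.23 in the same pairs. Pair 3, the one with few choroid plexus counts, gave the lowest ratio for 46 members, and pair 1 the highest for 43. Without pair 3, 30 members were called lower and 0 higher, with a median log2 fold of -0.84. Over all tested genes, 3530 were then called lower, against 3869 with all libraries. The part of choroid plexus in the results was not tested. Of the 77 members, 59 were lower in IP in 3 of 3 pairs, 16 in 2 pairs and 2 in 1 pair. Every IP library lay below every input library for 54 members, 44 of them the called ones, beside 32.9% of all tested genes. No member had every IP library above every input library (0 of 77, beside 29.0% of all genes).

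**Figure D1:**
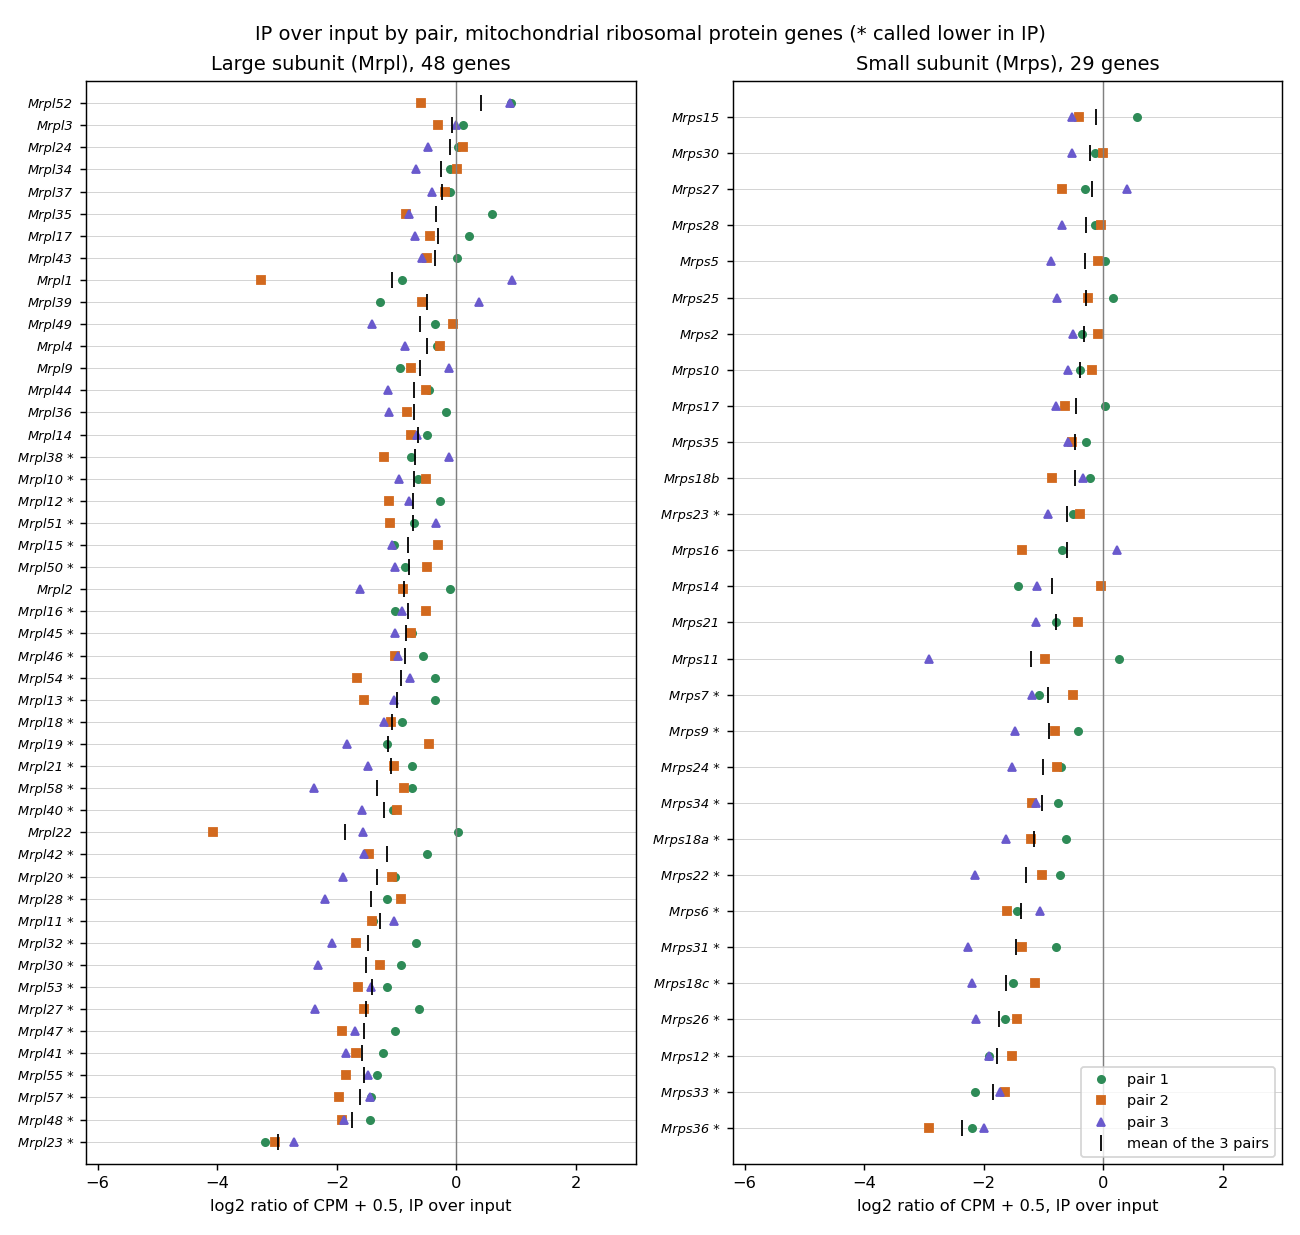
Log2 ratio of IP over input (CPM + 0.5; horizontal axis) in each of the 3 pairs for the 48 Mrpl genes (left) and the 29 Mrps genes (right), ordered by fitted fold, with a bar at the mean of the pairs and an asterisk on the 44 genes called lower in IP. Most points lie left of 0, and Mrpl1, Mrpl22 and Mrps11 show pairs that lie far from each other.

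The count of members called lower depended on which libraries were kept. Without IP 1, IP 2 or IP 3 it was 35, 40 and 38, and without input 3 it was 34. It was 29 without input 1 and 25 without input 2, and 24 and 26 without both libraries of pair 1 or pair 2. The count over all tested genes dropped from 3869 to 2967 without input 1, 3122 without input 2, 2467 without pair 1 and 2945 without pair 2. It was 3847, 4081 and 4192 without IP 1, IP 2 or IP 3, and 3163 without input 3. The members' median fold stayed between -0.97 and -0.78 in the 9 leave-outs. Each of the 10 called members with the smallest decreases lost its call without at least 1 single library. Without input 2 these were Mrpl10, Mrpl12, Mrpl15, Mrpl16, Mrpl38, Mrpl50, Mrpl51, Mrps7 and Mrps23, and without input 1 the same genes and Mrpl45. Without IP 1 the calls of Mrpl10, Mrpl15, Mrpl16, Mrpl38, Mrpl50, Mrpl51, Mrps7 and Mrps23 were lost, and without IP 3 those of Mrpl10, Mrpl12, Mrpl15, Mrpl16, Mrpl50, Mrps7 and Mrps23. Without IP 2 those of Mrpl12, Mrpl38 and Mrpl51 were lost, and without input 3 those of Mrpl15, Mrpl16, Mrpl50 and Mrps23. Of the 10 with the largest decreases, Mrps36 lost its call without input 1, input 2, pair 1 or pair 2, Mrps18c without pair 1 and Mrps33 without pair 2. Mrps18a, outside these groups, lost its call without pair 2. A core of 13 members was called lower under all 25 alternative settings: Mrpl11, Mrpl18, Mrpl20, Mrpl41, Mrpl47, Mrpl48, Mrpl53, Mrpl55, Mrpl57, Mrps6, Mrps12, Mrps26 and Mrps34. This core was picked after the values had been seen. Of its genes, Mrpl53 shares 88.0% of its exonic bases with Gm42688 on the same strand, and the part of shared reads was not tested. Exons of 33 members overlap those of another gene, for 7 of them over more than 25% of exonic bases. The 45 tested members without overlap had a median of -0.80 (25 called lower), and the 32 with overlap one of -0.82 (19 called lower).

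Both subunits showed the decrease. Of the Mrpl genes, 30 of 48 fell, with a median log2 fold of -0.83, and of the Mrps genes, 14 of 29 fell, with a median of -0.71. By pair, the large subunit genes had medians of -0.73, -0.96 and -1.06, and the small subunit genes -0.62, -0.77 and -1.10. Which subunit had the lower median therefore differed between pairs. The proteins with a bacterial counterpart and those without also gave similar values, with 23 of 45 (median -0.78) and 21 of 32 (median -0.86) called lower. Beside these counts, 23.9% of all tested genes were called lower. Differences between these classes were not tested.

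Among the members with a bacterial counterpart, Mrps12 (ENSMUSG00000045948; chromosome 7, 28739641 to 28741820 in GRCm38, minus strand) had the lowest fold after Mrpl23, which is described further on. Its product is the counterpart of the bacterial decoding-centre protein S12. Mrps12 had 21.9, 40.2 and 20.4 CPM in IP 1, 2 and 3, against 83.9, 116.1 and 77.6 CPM in the inputs. The groups were far apart, with the highest IP library below the lowest input library. The log2 fold was -1.75 (SE 0.30, edgeR adjusted p = 0.00093), a 3.37-fold lower level. Mrps7, a counterpart of bacterial S7, which binds the rRNA of the small subunit head, fell less, with 36.7 ± 15.1 CPM in IP and 66.7 ± 8.64 CPM in input (SD, n = 3 each; log2 fold -0.86, edgeR adjusted p = 0.030). With correction for the longest transcript it was not called (-0.58, edgeR adjusted p = 0.095), while with the gene's median transcript length it stayed called. Mrps21, another small subunit protein with a bacterial counterpart, had a log2 fold of -0.71 that missed the threshold (edgeR adjusted p = 0.12) and passed it with the replicate block (-0.79, adjusted p = 0.024).

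Mrpl10 and Mrpl12 form the stalk of the large subunit, where translation factors bind: Mrpl10 anchors copies of Mrpl12. Mrpl10 had 54.2, 66.7 and 39.4 CPM in IP 1, 2 and 3, against 84.7, 95.0 and 77.5 CPM in the inputs. Mrpl12 had 73.0, 47.8 and 45.0 CPM in IP, against 88.2, 105.6 and 78.4 CPM in input. Neither gene's groups overlapped. Their log2 folds were nearly equal, at -0.68 for Mrpl10 and -0.71 for Mrpl12 (SE 0.22 and 0.23; edgeR adjusted p = 0.027 for each). They were among the smallest decreases that were called. Neither was called with correction for the longest transcript (-0.33 and -0.25, edgeR adjusted p = 0.18 and 0.34), while both stayed called with the median transcript length.

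Of the large subunit proteins with bacterial counterparts, Mrpl55 came next after Mrpl23, with 11.96 ± 2.167 CPM in IP and 35.7 ± 0.307 CPM in input (SD, n = 3 each; log2 fold -1.57, edgeR adjusted p = 0.00066). The coefficient of variation of its input libraries was 0.860%, the smallest of any member in input. Mrpl15 and Mrpl16 were near the threshold, at -0.77 and -0.81 (edgeR adjusted p = 0.043 and 0.049). Mrpl16 was lost with the replicate block (adjusted p = 0.055) and with length correction (-0.74, edgeR adjusted p = 0.066).

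Among the proteins added in mitochondria, Mrpl48 (ENSMUSG00000030706; chromosome 7, 100545751 to 100608301, minus strand) had the smallest adjusted p of all members. It had 56.6, 37.6 and 41.5 CPM in IP 1, 2 and 3, against 155.2, 142.5 and 154.3 CPM in the inputs. In input it was the member with the highest CPM, and each IP library held less than any input library. The log2 fold was -1.73 (SE 0.19, edgeR adjusted p = 6.3e-05), a 3.33-fold lower level. Mrps26, a small subunit protein, followed the same pattern, with 29.8, 40.7 and 24.7 CPM in IP, against 94.3, 111.5 and 109.0 CPM in input (log2 fold -1.73, SE 0.22, edgeR adjusted p = 0.00015).

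Mrpl57 and Mrpl41, both large subunit proteins without a bacterial counterpart, had log2 folds of -1.64 and -1.56 (edgeR adjusted p = 0.00049 and 0.00048). Mrpl41 averaged 23.1 ± 6.51 CPM in IP and 68.5 ± 3.61 CPM in input (SD, n = 3 each). Mrps33 is a small subunit protein of low abundance, with 2.11, 4.52 and 4.11 CPM in IP, against 11.0, 15.2 and 14.7 CPM in input (log2 fold -1.93, SE 0.48, edgeR adjusted p = 0.0082). Mrpl45 lies near the exit of the peptide tunnel and faces the inner membrane. It averaged 20.7 ± 2.85 CPM in IP and 37.4 ± 3.24 CPM in input (SD, n = 3 each; log2 fold -0.85, edgeR adjusted p = 0.012). Mrpl38, Mrpl50 and Mrpl51 had log2 folds of -0.68, -0.77 and -0.72 (edgeR adjusted p = 0.033, 0.039 and 0.025). With correction for the longest transcript Mrpl38 and Mrpl50 were not called (-0.20 and -0.53, edgeR adjusted p = 0.56 and 0.11), while Mrpl51 was. With the median transcript length each of them stayed called.

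Mrps23 (chromosome 11, 88204388 to 88211507, plus strand), a small subunit protein without a bacterial counterpart, had the smallest decrease that was called. It had 30.2, 33.1 and 23.1 CPM in IP, against 43.0, 43.6 and 44.3 CPM in input (log2 fold -0.60, SE 0.22, edgeR adjusted p = 0.044). The call was lost with the replicate block (-0.61, adjusted p = 0.061) and with a correction for the longest transcript (-0.17, edgeR adjusted p = 0.52). It was kept with the median transcript length.

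The S18 family has 3 members in mammals, each a paralogue of bacterial S18. Mrps18b and Mrps18c belong to the small subunit, while structures place Mrps18a, and also Mrps30, in the large one despite their symbols. Mrps18c alone is counted above among the members with a bacterial counterpart. Mrps18a fell, with 42.3, 35.0 and 18.9 CPM in IP 1, 2 and 3, against 65.5, 81.2 and 59.0 CPM in the inputs (log2 fold -1.09, SE 0.29, edgeR adjusted p = 0.013). Corrected for the principal transcript's length it was not called (-0.59, edgeR adjusted p = 0.069). Mrps18c fell too, with 5.13, 8.10 and 3.83 CPM in IP, against 15.5, 18.5 and 19.4 CPM in input (log2 fold -1.65, SE 0.40, edgeR adjusted p = 0.0075). Mrps18b had 9.77, 6.99 and 9.62 CPM in IP, against 11.5, 13.1 and 12.3 CPM in input (log2 fold -0.48, SE 0.37, edgeR adjusted p = 0.32). Its IP libraries also lay below its input libraries, but by less than the test could separate. Whether the 3 paralogues differed from each other was not tested. Mrps18b shares 30.5% of its exonic bases with an antisense gene on the opposite strand, and without a stated strand setting reads of the 2 cannot be told apart.

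Levels were compared between genes as CPM per kilobase of the principal transcript. The median member had 12.7 CPM per kilobase in IP (range 0 to 60.5), against 22.8 in input (range 3.39 to 122). The order of the members was much alike in the 2 groups, with a Spearman rho of 0.92 over the 77 genes. This is a description, since the genes share libraries and depth. In IP the most abundant mRNAs per length of genes with an Mrpl symbol were those of Mrpl34 (60.5 CPM per kilobase), Mrpl52 (60.2), Mrpl43 (42.8) and Mrpl12 (42.0), against 69.9, 43.5, 53.6 and 68.9 CPM per kilobase in input. The most abundant mRNAs of genes with an Mrps symbol in IP were those of Mrps34 (59.4), Mrps21 (56.4), Mrps15 (46.1) and Mrps18a (36.3), against 121.6, 92.4, 47.6 and 77.6 CPM per kilobase in input. Mrps34 thus ranked first among all members in input.

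**Figure D2:**
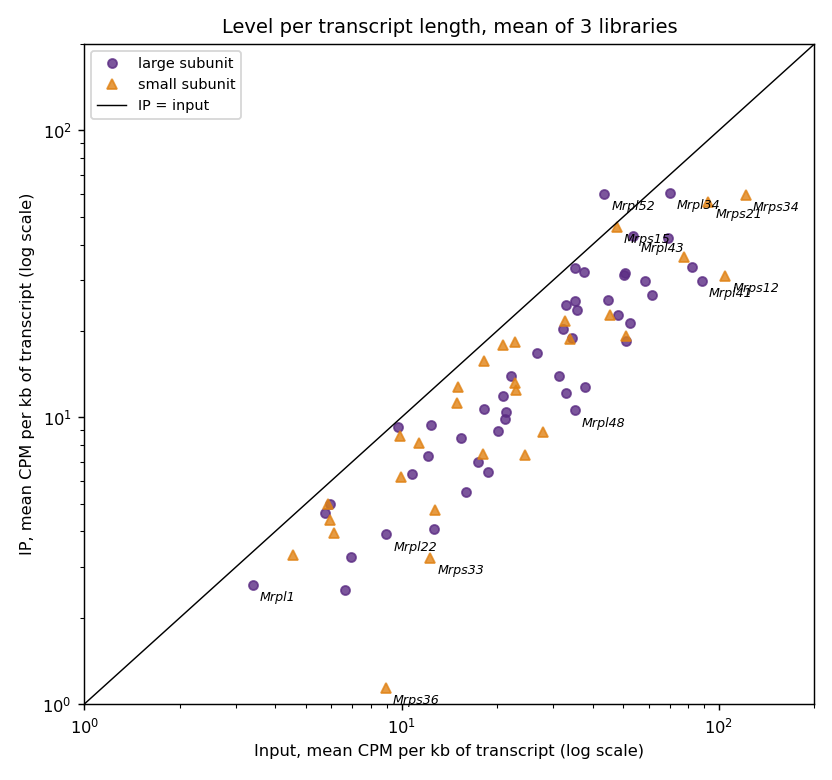
Mean CPM per kilobase of the principal transcript in IP (vertical, log scale) against input (horizontal, log scale), each the mean of 3 libraries, for the 76 members with counts in IP (Mrpl23, at 0 in IP, is not drawn). The line marks equal levels, and Mrpl52 is the gene that lies above it.

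Of these 8 abundant mRNAs, Mrps34, Mrps18a and Mrpl12 fell. Mrps34 had 58.1, 55.3 and 50.2 CPM in IP, against 98.1, 127.2 and 109.5 CPM in input (log2 fold -1.03, SE 0.17, edgeR adjusted p = 0.00082). Exons of Mapk8ip3 on the opposite strand cover 63.4% of its exonic bases and those of Nme3 on the same strand 37.0%, and the part of their reads was not tested. The others were not called. Mrpl34, Mrpl43 and Mrps15 had log2 folds of -0.21, -0.33 and -0.04 (edgeR adjusted p = 0.61, 0.24 and 0.92). With a correction for the longest transcript these became 0.43, 0.11 and 0.48, on the other side of 0. With the median transcript length they kept their sign.

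Mrpl52, a large subunit protein without a bacterial counterpart, was the one member with a fitted fold above 0. It had 26.3, 14.8 and 34.4 CPM in IP 1, 2 and 3, against 13.8, 22.5 and 18.2 CPM in the inputs. IP was higher in pairs 1 and 3 and lower in pair 2, and the groups overlapped. The log2 fold was 0.47 (SE 0.35, edgeR adjusted p = 0.31). With a correction for the longest transcript it was 1.12 (edgeR adjusted p = 0.041), and with one for the principal transcript 1.29 (edgeR adjusted p = 0.027).

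Transcript length was kept in view because folds of all genes varied with it. The members' longest annotated transcripts had a median of 1849 bases, against 3461 bases for tested protein-coding genes. The 5774 tested coding genes of 1056 to 3277 bases, the members' interquartile range, had a median log2 fold of -0.32, with 28.7% called lower and 19.9% higher. The members thus lay below genes of like length as well as below all genes. A smooth curve of fold on length through the 15948 tested genes with a length ran at a median of -0.43 at the members' lengths. Of the 77 members, 66 lay below it, where 48.7% of all genes did, and the median difference of the 77 from the curve was -0.52.

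Split by length, 15 of the 26 shortest members fell (488 to 1138 bases; median -1.05), 15 of the 26 in the middle (1219 to 2799 bases; median -0.68) and 14 of the 25 longest (2877 to 7300 bases; median -0.77). Coding genes of the same 3 ranges had medians of -0.77, -0.36 and 0.07, with 35.9%, 29.5% and 23.7% called lower. The gap between the medians was therefore widest among the longest members, a difference that was not tested. This split uses the longest transcript, and some of the longest members have short principal ones. The principal transcript has 1223 bases for Mrpl13 (longest 6008) and 666 for Mrpl42 (longest 3277). Across members, fold and length had a Spearman rho of 0.16 with the longest transcript, against 0.19 across all tested genes. With the principal transcript the members' rho was 0.27, and no value over all genes was taken for that length. With the folds corrected for length, 32 members were called lower and 1, Mrpl52, higher. With the principal transcript in the correction the counts were 28 and 1. Beside these, 24.4% and 24.2% of all genes were called lower under these 2 corrections, and 22.4% and 22.5% higher. A further correction, for the median length of a gene's transcripts, kept 41 calls of the main fit and lost 3, those of Mrpl15, Mrpl16 and Mrps9. It added Mrpl2 and Mrpl4 as lower and Mrpl52 as higher. How many calls length correction removed thus depended on the transcript used.

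**Figure D3:**
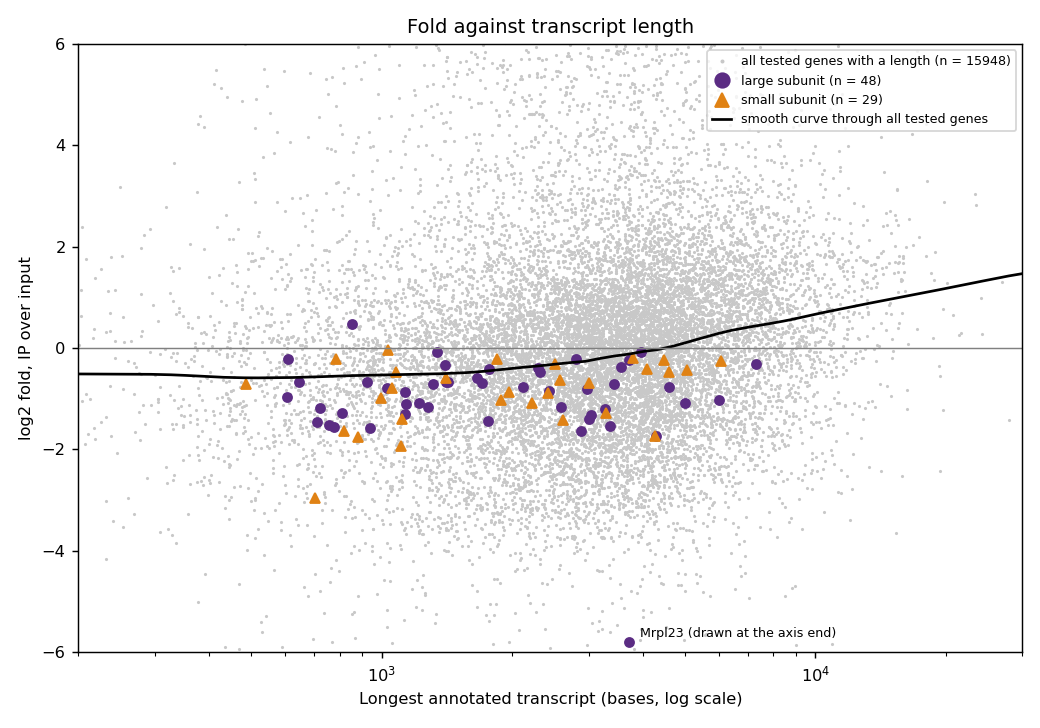
Fitted log2 fold of IP over input against the longest annotated transcript (bases, log scale) for large subunit genes (circles), small subunit genes (triangles) and all 15948 tested genes with a length (grey), with a smooth curve through all genes. Of the 77 members, 66 lie below the curve; genes beyond the vertical axis are not drawn, except Mrpl23, which is set at its lower end.

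Processed pseudogenes, which are intronless copies of an mRNA inserted elsewhere in the genome, bear on some of the lowest folds. Near-identical copies (at least 95% identity over at least 100 bases and at least 50% of the copy) were found for 19 members, and 14 of them had such a copy in the count table. Mrpl23 (ENSMUSG00000037772; chromosome 7, 142532686 to 142540747, plus strand), the counterpart of bacterial L23 near the tunnel exit, had the lowest fold of all. The 438 coding bases of its main transcript are identical to those of Mrpl23-ps1 on chromosome 2. The first 120 of them are shown here, since a read from this stretch has the same letters in both places:
Mrpl23: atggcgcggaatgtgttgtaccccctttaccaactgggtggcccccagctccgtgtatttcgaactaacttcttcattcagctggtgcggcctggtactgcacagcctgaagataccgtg

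Mrpl23 had 0 counts in each IP library, against 88, 69 and 54 counts in the inputs. At a floor of 3 counts over the IP group this is an at least 47.9-fold lower level (edgeR adjusted p = 0.0057). Mrpl23-ps1 held 299, 341 and 311 counts in IP 1, 2 and 3, against 614, 687 and 504 counts in the inputs, or 92.9% of the counts of the pair. With both rows added, the level was 16.1, 29.1 and 29.0 CPM in IP, against 32.7, 39.4 and 28.6 CPM in input. The groups then overlapped, and the log2 fold was -0.44 (SE 0.29, edgeR adjusted p = 0.24). The sum was therefore not called lower, unlike the row of Mrpl23 alone.

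Mrps36, whose product is known also as a subunit of the 2-oxoglutarate dehydrogenase complex of the citric acid cycle, had 16, 7 and 10 counts in IP, against 124, 150 and 101 counts in input. Its log2 fold was -2.96 (SE 0.80, edgeR adjusted p = 0.013) and missed the threshold with the replicate block (-2.95, adjusted p = 0.055). Its nearest copy, Mrps36-ps1 on chromosome 17, differs at 2 of 306 coding bases, both within the stretch shown, where capitals mark the differing letters:
Mrps36: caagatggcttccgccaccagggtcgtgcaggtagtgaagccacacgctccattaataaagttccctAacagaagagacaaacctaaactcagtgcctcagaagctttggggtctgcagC
Mrps36-ps1: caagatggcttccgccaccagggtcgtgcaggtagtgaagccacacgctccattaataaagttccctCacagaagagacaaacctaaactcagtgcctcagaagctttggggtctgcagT

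Mrps36-ps1 held 57, 32 and 30 counts in IP, against 84, 140 and 121 counts in input. With its copies that had a row added, Mrps36 had a log2 fold of -1.89 (SE 0.44, edgeR adjusted p = 0.0057). Mrpl48 with Mrpl48-ps had one of -1.41 (SE 0.15, edgeR adjusted p = 4.9e-05) and stayed called. Adding the copies that had a row in the count table, those of 14 members, changed 1 call, that of Mrpl23. Mrpl21, Mrpl22, Mrps10, Mrps26 and Mrps33 had copies only without a row, and the part of those copies was not tested. The copy of Mrps33 is 99.69% identical over 321 bases. The 58 members without a near-identical copy had a median of -0.74, with 31 called lower.

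**Figure D4:**
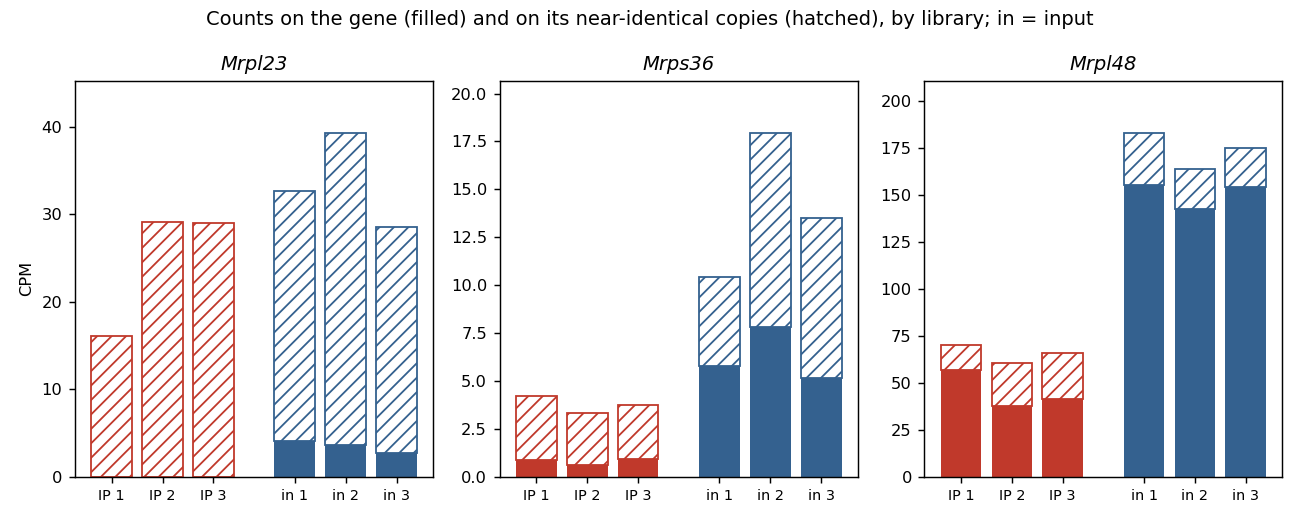
CPM on the gene itself (filled) and on its near-identical pseudogene copies (hatched, stacked) in the 3 IP (red) and 3 input (blue) libraries, for Mrpl23, Mrps36 and Mrpl48. For Mrpl23 the filled part is at 0 in IP and the summed bars overlap between the groups, while for Mrps36 and Mrpl48 the IP bars lie below all input bars with or without the copies.

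Some members were uneven between IP libraries. The coefficient of variation was larger in IP than in input for 63 members, with a median of 27.4% in IP and 12.4% in input, beside 30.4% and 19.4% for all tested genes. The IP libraries also had fewer counts on the members, as given above. Mrpl22 had 7.34, 0 and 1.12 CPM in IP 1, 2 and 3, against 7.17, 7.86 and 4.31 CPM in the inputs. Mrpl1 had 6.26, 0.938 and 20.6 CPM in IP, against 12.3, 13.4 and 10.5 CPM in input. The IP values of Mrpl22 ranged from 0 to within its input range, and those of Mrpl1 from below to above its inputs. Coefficients of variation in input were 29.2% for Mrpl22 and 12.2% for Mrpl1. Their log2 folds of -1.17 and -0.38 did not pass the test (edgeR adjusted p = 0.49 and 0.73). Both are large subunit proteins with bacterial counterparts, and they are named here for their spread, after their values had been seen.

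Mrps11 and Mrpl46 lie head to head on chromosome 7, and their annotated 5′ ends overlap. Their promoter windows, 250 bases before to 50 after each RefSeq start in GRCm38.p6, share 141 bases. The window of Mrps11 (chr7:78782881-78783180, plus strand) is shown with the shared bases in capitals:
Mrps11: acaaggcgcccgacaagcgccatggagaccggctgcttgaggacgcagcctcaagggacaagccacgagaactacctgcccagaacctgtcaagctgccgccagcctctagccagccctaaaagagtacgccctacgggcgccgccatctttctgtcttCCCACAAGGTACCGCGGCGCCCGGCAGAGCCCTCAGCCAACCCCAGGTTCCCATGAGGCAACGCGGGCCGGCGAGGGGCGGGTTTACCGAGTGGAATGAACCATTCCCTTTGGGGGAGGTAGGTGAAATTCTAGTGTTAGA

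Of these neighbours, Mrpl46 was called lower and Mrps11 was not. Whether their folds differed was not tested. Mrpl46 had 24.3, 21.9 and 18.1 CPM in IP 1, 2 and 3, against 36.1, 45.2 and 36.2 CPM in the inputs, and fell (log2 fold -0.87, SE 0.23, edgeR adjusted p = 0.012). With correction for the longest transcript it was not called (-0.37, edgeR adjusted p = 0.17), while with the median transcript length it stayed called. Mrps11 had 25.7, 13.1 and 2.80 CPM in IP, against 21.4, 26.3 and 24.4 CPM in input (log2 fold -0.78, SE 0.60, edgeR adjusted p = 0.32). IP 1 lay within the range of the Mrps11 inputs and IP 3 far below it. Exons of Mrps11 cover 12.2% of the exonic bases of Mrpl46, on the opposite strand.

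Promoter windows were found for 69 of the 78 members, and 3 motifs were searched in them on both strands. The letters CCGGAAG, the core bound by ETS factors such as GABP, were in 26 of the 69 (37.7%), in 9.93% of all 27025 windows and in 17.98% of those of tested genes. They were in 39.1% of the windows of cytosolic ribosomal proteins and 24.2% of those of respiratory chain and ATP synthase genes. AAGATGG, of YY1, was in 13 members (18.8%; 7.28% of all windows and 7.91% of those of tested genes), and CATGCGC, of NRF1, in 8 (11.6%; 4.41% and 7.45%). These are matches of letters, not sites shown to be bound. Members with the ETS letters had a median log2 fold of -1.09 (15 of 25 called lower), and members without them one of -0.78 (23 of 43). The split ran the other way for the NRF1 letters (-0.60 with, 2 of 7 called lower, and -0.85 without, 36 of 61) and was small for the YY1 letters (-0.78 with, 6 of 13, and -0.81 without, 32 of 55). None of these splits was tested. The fold of Mrpl23 is that of its own row, and with its pseudogene copy added the sum was not called. Its window, set by the RefSeq start, lies within the gene's span given above. Mrps23 and Mrpl23, the called members with the highest and the lowest fold, are shown with capitals on the ETS letters, read on the minus strand in Mrps23 (chr11:88204138-88204437, plus strand) and absent from the window of Mrpl23 (chr7:142532782-142533081, plus strand):
Mrps23: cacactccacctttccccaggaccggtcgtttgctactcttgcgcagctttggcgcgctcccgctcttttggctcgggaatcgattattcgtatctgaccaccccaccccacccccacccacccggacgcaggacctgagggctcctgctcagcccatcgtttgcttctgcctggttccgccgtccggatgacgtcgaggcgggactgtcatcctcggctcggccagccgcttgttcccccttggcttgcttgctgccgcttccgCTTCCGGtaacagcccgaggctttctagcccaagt
Mrpl23 promoter: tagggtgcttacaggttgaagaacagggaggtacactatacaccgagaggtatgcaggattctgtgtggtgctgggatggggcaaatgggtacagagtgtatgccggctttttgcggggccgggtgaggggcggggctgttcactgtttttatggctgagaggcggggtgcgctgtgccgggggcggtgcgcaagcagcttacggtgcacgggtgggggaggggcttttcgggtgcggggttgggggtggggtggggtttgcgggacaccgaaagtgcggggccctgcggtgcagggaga

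Genes that work with the mitoribosome did not share one pattern. The 5 mitoribosomal proteins with other symbols had a median log2 fold of -0.91, and 3 of 5 fell. The lowest was Aurkaip1, a small subunit protein first described as a partner of Aurora kinase A, with 31.7, 46.5 and 17.7 CPM in IP, against 68.5, 101.3 and 75.8 CPM in input (log2 fold -1.36, SE 0.33, edgeR adjusted p = 0.0073). Dap3, a GTP-binding small subunit protein, had a log2 fold of -1.05 (edgeR adjusted p = 0.0017) and Chchd1 one of -0.91 (edgeR adjusted p = 0.015).

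Of 23 assembly and rRNA-modification factors, 3 fell and the other 20 were not called. Their median was 0.02 by the fit, with pair medians of 0.03, 0.01 and -0.38. The lowest was Mtg1, a GTPase of large subunit assembly (8.37 ± 2.86 CPM in IP and 20.1 ± 2.60 CPM in input, SD, n = 3 each; log2 fold -1.27, edgeR adjusted p = 0.016). Ngrn, which takes part in handling the large subunit rRNA, had a log2 fold of -0.92 (edgeR adjusted p = 0.013). Trub2, of the same group of factors, also had one of -0.92 (edgeR adjusted p = 0.045).

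Of 14 translation factors, 2 rose and the other 12 were not called, with a median of 0.04. One of the 2 was Lrpprc, which stabilises mitochondrial mRNAs. It had 53.7, 43.8 and 39.4 CPM in IP, against 33.3, 25.8 and 28.4 CPM in input, and the groups did not overlap (log2 fold 0.65, SE 0.22, edgeR adjusted p = 0.035).

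Of 18 mitochondrial aminoacyl-tRNA synthetases, 2 rose and 1 fell, with a median of -0.16. Lars2, the leucyl enzyme, had 1348, 2080 and 1942 CPM in IP, against 46.5, 46.8 and 89.5 CPM in input (log2 fold 4.88, SE 0.32, edgeR adjusted p = 2.2e-06). Vars2, the valyl enzyme, had a log2 fold of 1.10 (edgeR adjusted p = 0.022) and Fars2, the phenylalanyl enzyme, one of -1.17 (edgeR adjusted p = 0.024). Of 11 tested genes of mitochondrial DNA transcription and replication, 3 rose and the other 8 were not called, with a median of -0.02 by the fit and pair medians of 0.08, 0.68 and 0.51. Polg, the catalytic subunit of the mitochondrial DNA polymerase, had 96.3, 103.4 and 91.4 CPM in IP, against 38.2, 35.5 and 39.0 CPM in input (log2 fold 1.37, SE 0.16, edgeR adjusted p = 0.0001). Dguok and Tk2, kinases that supply its nucleotides, had log2 folds of 1.28 and 1.03 (edgeR adjusted p = 0.0063 and 0.0029). Over these 5 lists, 7 genes rose and 7 fell, beside 23.8% of all genes called higher and 23.9% called lower. The count that fell was 4 without input 1, input 2, pair 2 or pair 3 and 3 without pair 1, and the count that rose was 4 without pair 2.

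Nuclear genes of the respiratory chain and ATP synthase, whose partners the mitoribosome makes, were lower still, with 72 of 81 called lower and a median of -1.46. Their pair medians were -1.26, -1.35 and -1.65, each below that of the mitoribosomal genes in the same pair. Cytosolic ribosomal protein genes, with 3 of 78 called higher and 15 lower, had a median of -0.39 and pair medians of -0.20, -0.50 and -0.55, each above that of the mitoribosomal genes. Of the cytosolic ribosomal protein genes 19.2% were called lower and 3.85% higher, and of the respiratory chain and ATP synthase genes 88.9% were called lower. Beside these, 23.9% of all tested genes were called lower and 23.8% higher. The differences between the lists were not tested.

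**Figure D5:**
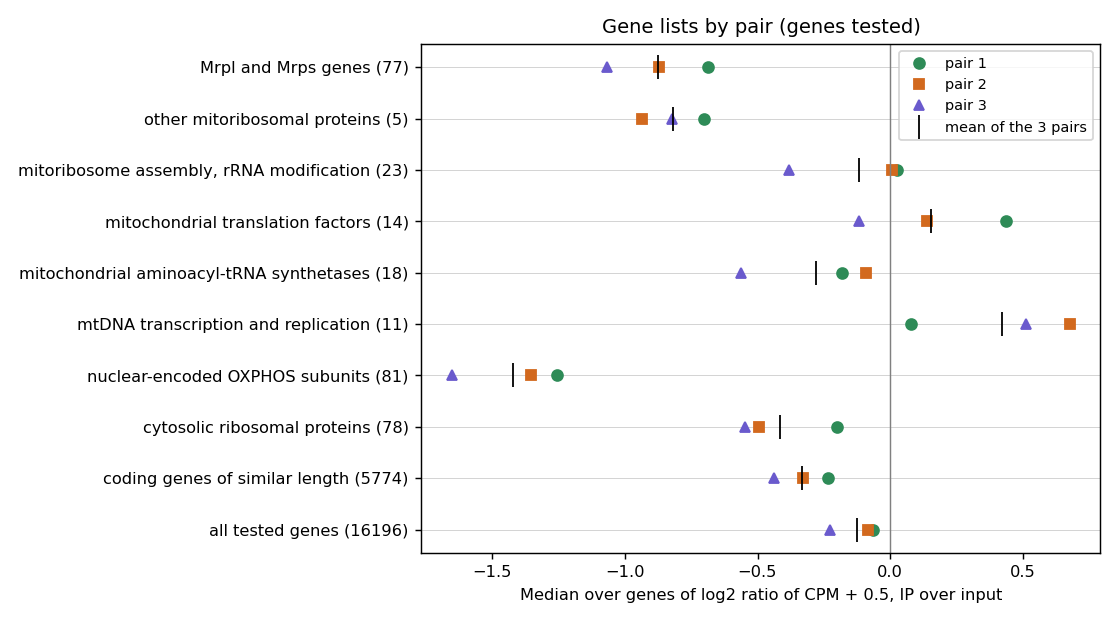
Median over genes of the log2 ratio of IP over input (CPM + 0.5; horizontal axis) in each of the 3 pairs, with a bar at their mean, for the mitochondrial ribosomal protein genes, 7 related lists, coding genes of similar length and all tested genes (number tested in brackets). The mitoribosomal genes lie between the respiratory chain genes and the cytosolic ribosomal protein genes in each pair.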

How the data were processed

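The deposited table holds whole-number counts per Ensembl gene. Reads were demultiplexed with bcl2fastq 2.17, checked with FastQC, trimmed with Trimmomatic and referred to mm10, per the submitters' processing notes. The kit was stranded, per the labels' protocols, and the labels give polyA RNA. Which aligner, counting tool, strand setting and annotation release were used is not given in the sources used here. Identifiers were named from GENCODE M21 (mm10 is the same assembly as its GRCm38), which named 37693 rows. The 1324 other rows, with 0.404% to 0.464% of counts, were kept in the totals and tests under their identifiers.

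Of the deposited counts, those of 16196 genes passed edgeR's filter (minimum count 10). IP and input were compared in edgeR by quasi-likelihood (glmQLFit and glmQLFTest) with TMM scaling, robust dispersion and no block, on all 6 libraries, and called at a Benjamini-Hochberg adjusted p below 0.05. The SE is the absolute log2 fold over the root of F. CPM values are TMM-scaled, and pair ratios use CPM + 0.5. Pairs come from the shared specimen code in the titles. Deviations from group means correlated at 0.06, 0.25 and 0.18 within codes and at -0.20 to 0.03 between codes (11180 genes). Within groups, counts of any 2 libraries differed by more than sampling noise. The fits were tested on simulated data.

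Length is that of the longest annotated transcript, or where stated of the APPRIS principal one or the median over a gene's transcripts. Of tested genes, 98.5% had a length. The smooth curve is a lowess with span 0.3. Copies were found with BLAST+ 2.17.0 among annotated pseudogenes. Promoters are from RefSeq (GRCm38.p6). The genes named by rule are the 10 called members with the highest and the 10 with the lowest fold. The rule adds the 4 of each subunit most abundant in IP per length, the S18 and stalk genes and members without a row. It also adds the called genes at either end of each related list. Others were named outside the rule, some of them said to be chosen later. Among these others are Mrps11, Mrpl46, Dap3, Trub2, Vars2 and Dguok. The called translation factor with the highest fold is not reported here. The members and lists were chosen with earlier results of these data known. Tools were R 4.3.3, edgeR 4.0.16, limma 3.58.1, DESeq2 1.42.0, Python 3.11.15 and statsmodels; 25 alternatives were tried.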

Additional observations from a re-analysis of the deposited data

How the results depend on the processing

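The members' median log2 fold stayed below 0 under all 25 alternatives, while its size varied. Of these alternatives, length correction with the principal transcript and addition of pseudogene copies were chosen after seeing the data. The median without members that have copies, -0.74, was also added then. The median was -0.61 with a correction for the longest transcript and -0.59 with the principal one, where 28 members were called lower. In the large subunit these medians were -0.61 and -0.60, and ran from -1.003 to -0.793 over the leave-outs. One member (1 of 77, Mrpl52) was called higher under the corrections for the longest, median or principal transcript. The rho of members' fold on length was -0.35 with the length correction, 0.089 with the median transcript, -0.25 with the principal one, -0.33 with length correction and replicate block, and 0.09 to 0.186 over the leave-outs. Among the genes named by rule, the log2 folds that turned above 0 were those of Mrpl34 (0.43 with length correction, 0.41 with the block added, 0.42 with the principal transcript), Mrpl43 (0.11, 0.094 and 0.041), Mrps15 (0.48, 0.41 and 0.45) and Mrps18b (0.061 with length correction and 0.028 with the block added). Over all 77 members, 7 changed sign with the length correction, 8 with the principal transcript and 0 with the median transcript. The cause of these shifts was not tested.

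Over the leave-outs, members called lower numbered 24 to 40, all genes lower 2467 (without pair 1) to 4192, related-list genes higher 4 to 9 and lower 3 to 10. The fold of Mrps15 ran from -0.463 to 0.163 and was above 0 without IP 2, IP 3, pair 2 or pair 3. That of Mrpl34 ran from -0.562 to 0.011 and was above 0 without IP 3. With the replicate block, 43 members were called lower: 41 of the 44 remained, Mrpl16, Mrps23 and Mrps36 were lost, and Mrpl2 and Mrps21 were added. Of the 700 alternative values of named members, 571 kept direction and side of the threshold, 106 lost the threshold, 7 gained it and 16 changed sign. The median fold of all genes moved by -0.13 with upper-quartile scaling, -0.10 with library totals alone, -0.16 without the filter, -0.13 under limma-voom, -0.12 under the replicate block and -0.13 under block and length correction together. Depth limits the members with few IP counts, such as Mrpl22, Mrpl23 and Mrps36.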
